A study of Mus musculus with 18 samples.

Results

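The histone genes were the genes whose symbol begins with a histone prefix of the current or the older nomenclature, such as H1f, H2ac, H2bc, H3c, H4c, Hist1h or H2af. The mouse reference table lists 101 such symbols, 94 of them protein coding. A probe set annotated to that gene alone was present for 21 of them, against 18193 genes of the whole series with a probe set of their own. Each of the 21 genes was read from its own probe set with the highest mean log2 signal over the 18 arrays. A probe set is called a gene's own by its annotation alone, and whether its probes also read related genes was not tested. Of these 21 genes, 6 were testis variants, 6 were replacement variants and 9 were canonical, replication-dependent histones. A further 54 genes were listed only in probe sets shared by several genes, and 19 protein-coding symbols were in no listed probe set and were not analysed here.

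Canonical histone genes lie in clusters and are transcribed mainly in S phase, and most of their mRNAs end in a stem-loop rather than a poly(A) tail. How far the labelling of these samples captured mRNAs without a poly(A) tail was not tested. Replacement variants are transcribed outside S phase too and take the place of canonical histones in particular chromatin. Spermatogenic cells add testis variants, first in spermatocytes and then in spermatids, where most histones finally give way to transition proteins and protamines.

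RNA of whole testis was profiled in juvenile mice that were repro9/repro9, called mutants, or wild type, at 14 or 17 days postpartum (dpp). The allele repro9 is a mutation of Mybl1, the gene of the spermatocyte transcription factor A-MYB, and every cell of a mutant carries it. The groups were wild type at 14 dpp (3 arrays), mutant at 14 dpp (5), wild type at 17 dpp (5) and mutant at 17 dpp (5), and per the series text the ages were chosen for the pachytene stages that the testis then holds. No strain is given and no label ties an array to 1 animal, so p-values measure the spread between these samples, which may be technical.

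Values are signals of the Affymetrix MAS5 algorithm, a brightness in arbitrary units that has no common scale across probe sets. The median signal of an array was 88.7 to 149, and the number of arrays limits the precision. Probe sets were tested where their signal was above the 40th percentile of the array, which was 49.2 to 93.4, on at least 3 arrays. The arrays fell into 3 sets by their β-actin controls, as the 3' signal over the 5' signal: 2.31 to 2.92 on the 7 arrays of set 1, 1.45 to 1.49 on the 4 arrays of set 2 and 103 to 125 on the 7 arrays of set 3. On set 3 the 5' signal was thus very weak beside the 3' signal, and whether this came from RNA quality or from labelling was not tested. Set 1 held replicates 1 and 2 of each group except wild type at 17 dpp, of which it held replicate 1. Values from set 1 alone that involve wild type at 17 dpp therefore rest on 1 wild-type array, whose spread is assumed to equal that of the other groups, and are printed without a p-value. All other arrays of 14 dpp were in set 2 and all other arrays of 17 dpp in set 3, so most of the difference in age ran together with the array set. Each result is therefore given from the fit without the set and, where the call or value differs, from a block fit, which adds the array set as a term. Set 1 is the only set with both ages, so age differences in the block fit rest on it, with its 1 wild-type array of 17 dpp. Age values of the block fit and of set 1 are thus not separate evidence. Of 9 pachytene spermatocyte markers, 6 were lower in mutants at 14 dpp and 8 at 17 dpp (limma). Of all tested probe sets 0.196% and 3.86% were lower. The marker not called at 17 dpp was Sycp3 (−0.55 ± 0.46, limma, adjusted p = 0.545), which gave −0.10 ± 0.53 at 14 dpp. The summed signal of the 9 markers at 17 dpp was 63937 to 143500 in wild type and 10340 to 39422 in mutants. Bright probe sets weigh most in such a sum. In these bulk samples, fewer cells of a type and less RNA per cell cannot be told apart.

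RefSeq promoter windows matched 18 of the 21 genes, and none matched H2ax, H2bc21 or H3c7. The 3 windows shown are those of H1f2 and H2bc18, the canonical genes that were higher in mutants at 17 dpp in the block fit, and of H1f6, the testis linker histone, for comparison with its canonical relative. Each is the 250 bases before the gene's start on the plus strand of GRCm38.p6, at chr13:23738557-23738806 for H1f2, chr13:23695561-23695810 for H1f6 and chr3:96269450-96269699 for H2bc18. Capitals mark, on either strand, the CCAAT letters of the CCAAT box, the AAACACA of the H1 box, the ATTTGCAT of the octamer and the core of MYB sites, AACTG or else AACGG; the TATAAA of the TATA box was searched too, and no 2 marked matches overlap.
H1f2: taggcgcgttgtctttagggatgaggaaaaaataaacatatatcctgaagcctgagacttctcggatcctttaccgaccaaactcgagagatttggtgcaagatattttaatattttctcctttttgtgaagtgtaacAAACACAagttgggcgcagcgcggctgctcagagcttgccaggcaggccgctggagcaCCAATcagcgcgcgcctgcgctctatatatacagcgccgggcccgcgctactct
H1f6: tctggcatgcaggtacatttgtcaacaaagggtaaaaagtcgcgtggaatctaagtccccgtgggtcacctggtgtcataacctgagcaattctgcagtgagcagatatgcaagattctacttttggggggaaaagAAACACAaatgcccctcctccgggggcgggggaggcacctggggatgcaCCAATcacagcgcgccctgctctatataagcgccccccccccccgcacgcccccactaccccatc
H2bc18: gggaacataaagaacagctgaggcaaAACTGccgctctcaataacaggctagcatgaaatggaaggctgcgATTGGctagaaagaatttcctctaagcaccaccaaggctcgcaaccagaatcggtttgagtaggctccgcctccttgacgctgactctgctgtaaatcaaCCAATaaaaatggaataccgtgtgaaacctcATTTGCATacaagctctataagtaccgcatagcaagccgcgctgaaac

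AAACACA, the letters of the H1 box described in linker histone promoters, lay 112 bases before the start of H1f2 and 114 bases before that of H1f6. It occurred in 4 of the 18 windows, those of H1f2, H1f4, H1f6 and H3f3a, and in 6.25% of all 32851 windows of that length. CCAAT, the letters bound by NF-Y, followed it 54 bases before the start of H1f2 and 65 bases before that of H1f6, and occurred in 14 of the 18 windows and in 33.8% of all windows. ATTTGCAT, the octamer known from H2B promoters, lay 48 bases before the start of H2bc18 and occurred in 2 of the 18 windows, those of H2bc18 and H3f3b, and in 1.6% of all windows. AACTG or AACGG, the core letters of MYB sites, occurred in 9 of the 18 windows and in 48.6% of all windows. They were in the window of H2bc18 and not in those of H1f2 or H1f6. TATAAA occurred in 6 of the 18 windows and in 12.4% of all windows.

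The testis variants ranged in signal from H2al2a, with group geometric means of 5.9 to 21.8, to H2bfm, which was above the 40th percentile of its array on 17 of the 18 arrays. Of the 6 with a probe set of their own, H1f6, H1f7 and H2bfm passed the filter on low signal, and H1f8, H2al2a and H2al3 did not. H1f6 encodes H1t, the linker histone of pachytene spermatocytes. Its signal was 15.2, 37.4 and 40.5 in wild type at 14 dpp and 9.26, 26.2, 95.9, 115 and 55 in mutants. At 17 dpp it was 52.1, 24, 49.4, 103 and 101 in wild type and 50.9, 34.2, 92.8, 156 and 29.8 in mutants. The groups overlapped at both ages, and H1f6 was above the 40th percentile of its array on 7 of the 18 arrays. The mutant minus wild type difference was 0.60 ± 0.79 (SE, log2) at 14 dpp and 0.04 ± 0.69 at 17 dpp (limma, adjusted p = 1 and 0.983).

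H1f7, known as H1fnt or H1T2, is a linker histone of spermatids. Its signal at 14 dpp was 37.7, 63.8 and 93.6 in wild type and 118, 92.1, 96.6, 120 and 154 in mutants. At 17 dpp the lowest, median and highest signals were 9.24, 44.9 and 104 in wild type and 4.97, 72.9 and 115 in mutants. The signal was above the 40th percentile of its array on all 5 mutant arrays of 14 dpp and on 1 of the 3 wild-type ones. The mutant arrays of 14 dpp lay mostly above the wild-type ones, with a difference of 0.91 ± 0.88 that was not called (limma, adjusted p = 1), and the groups of 17 dpp overlapped. Its second probe set was dimmer and did not pass the filter. At 14 dpp that probe set lay the other way, with geometric means of 33.6 in wild type and 19.5 in mutants.

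H2bfm is an X-linked H2B-like gene. Its signal was 116, 161 and 156 in wild type at 14 dpp and 262, 273, 199, 198 and 174 in mutants. All 5 mutant arrays were above all 3 wild-type arrays, but the difference of 0.61 ± 0.57 was not called (limma, adjusted p = 1). At 17 dpp the geometric mean was 118 in both genotypes, and the mutant arrays ran from 26 to 334.

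The testis variants below the filter belong to spermatids or to oocytes. H2al2a is a spermatid H2A variant, and its relative H2al3 had group geometric means of 11.5 to 42.1. H1f8, the oocyte linker histone, had group geometric means of 7.58 to 10.1. A probe set shared by 11 H2al1 genes, also variants of spermatids, had group geometric means of 7.54 to 24. Hils1, a spermatid linker histone whose symbol is outside the prefixes, had group geometric means of 6.44 to 12.8. H2ac1 and H2bc1, the testis forms of H2A and H2B that appear early in meiosis, were among the genes not analysed here.

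**Figure D1:**
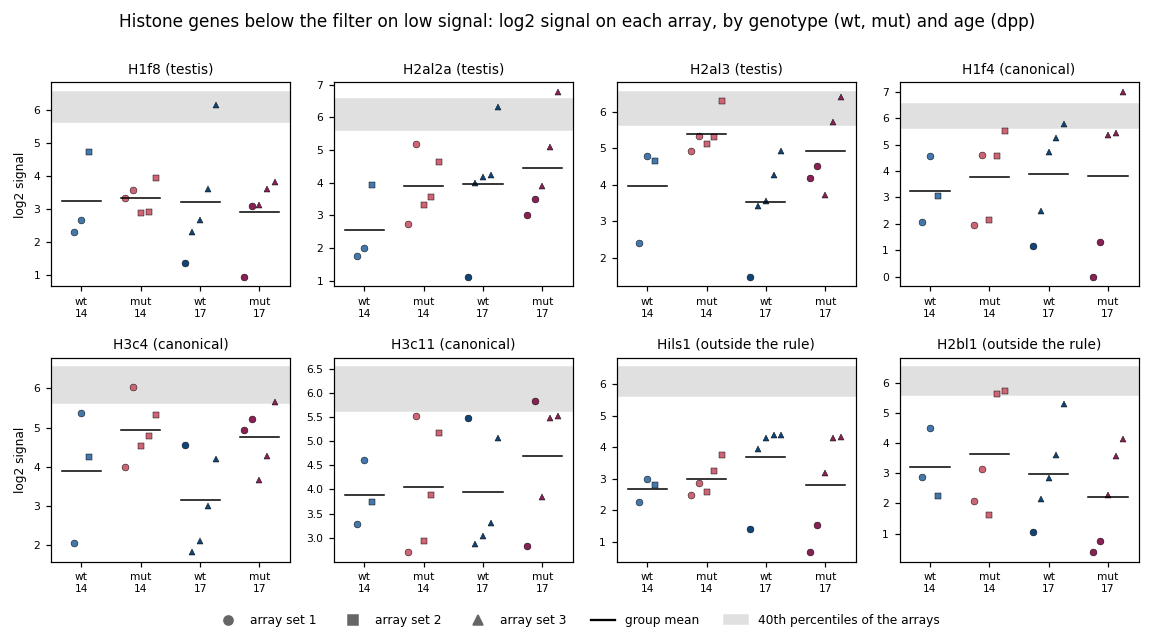
Log2 signal on each array for the 6 histone genes below the filter on low signal and for Hils1 and H2bl1, by genotype and age; points are arrays shaped by array set, lines are group means and the grey band spans the 40th percentiles of the 18 arrays, 49.2 to 93.4. Nearly all points lie under or within the grey band in each of the 4 groups.

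At 14 dpp none of the 15 tested histone genes was called between genotypes in the limma fit. Of all 34764 tested probe sets, 0% were called higher in mutants and 0.196% lower. No histone gene reached an unadjusted p under 0.05 either, which 696 of all tested probe sets did. In the block fit the background was 0.0115% higher and 0.357% lower, again with 0 histone genes called. An unadjusted p under 0.05 was then reached by 2 histone genes and by 1288 of all tested probe sets. The 3 largest differences without the block were those of H2bc18 (1.20 ± 0.62), H1f7 (above) and H2ax (−0.82 ± 0.61). The median difference was 0.61 over the 3 tested testis variants, −0.23 over the 6 replacement variants and 0.36 over the 6 tested canonical genes, against 0.06 over all tested probe sets. Without the filter the medians were 0.76 over all 6 testis variants and 0.47 over all 9 canonical genes with a probe set of their own.

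At 17 dpp the limma fit called 1 of the 15 genes, H2bc21, which was lower in mutants. Of all tested probe sets 1.48% were called higher and 3.86% lower. In the block fit 4 were called, H2bc21 and H2ax lower and H1f2 and H2bc18 higher, where the background was 10.8% higher and 8.05% lower. The share of 2 in 15 in each direction was thus of the order of the background. The median difference was 0.00 over the 3 tested testis variants, −0.07 over the replacement variants and 0.20 over the 6 tested canonical genes, against 0.25 over all tested probe sets. No testis variant was called at either age with or without the block. Of the genes classed as canonical by their symbol, H1f2 and H2bc18 were called higher with the block and H2bc21 lower in both fits. H2bc21 is known as a variant, as given below.

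**Figure D2:**
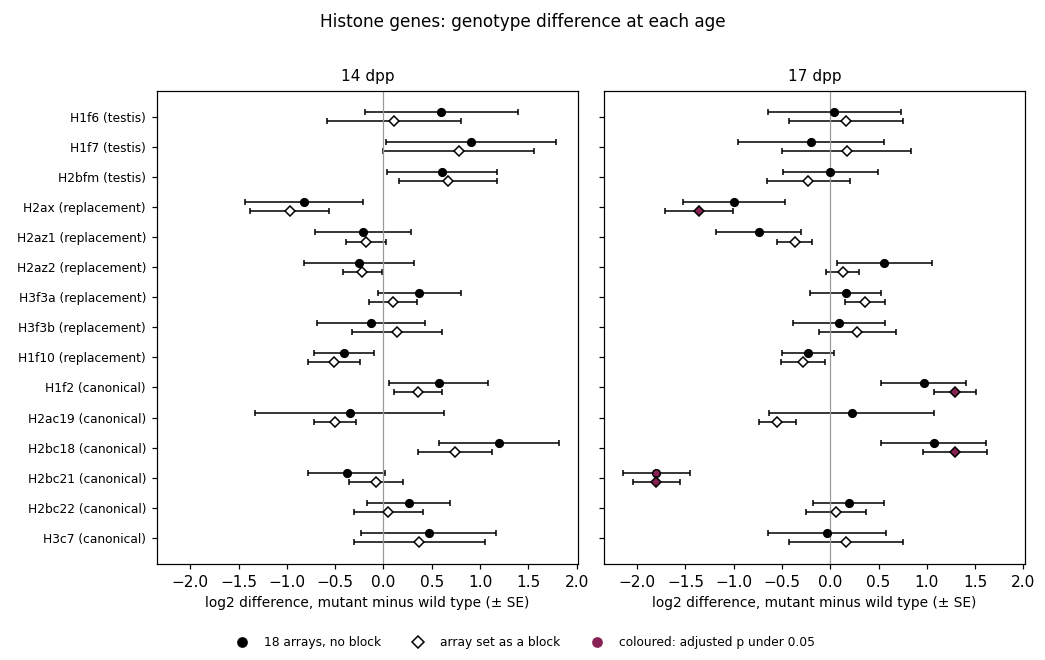
Log2 difference, mutant minus wild type, with its standard error for the 15 tested histone genes at 14 dpp (left) and 17 dpp (right), from the fit without a block (circles) and in the block fit (diamonds); coloured symbols mark an adjusted p under 0.05. At 17 dpp H2bc21 lies at −1.80 in both fits, and H2ax, H1f2 and H2bc18 are called with the block alone.

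H2bc21 encodes H2B.E, an H2B known as a variant from olfactory neurons, although its symbol places it among the canonical genes. In wild type at 17 dpp its signal was 2379, 1276, 1489, 1289 and 3076. In mutants at 17 dpp it was 377, 501, 539, 691 and 498. Every wild-type array was above every mutant array, by a factor of 3.48 in the geometric means (log2 difference −1.80 ± 0.35, limma, adjusted p = 0.0029). At 14 dpp the signal was 510, 484 and 194 in wild type and 433, 424, 225, 198 and 205 in mutants. Those groups overlapped, and the arrays of set 1 were the high ones in both genotypes.

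The difference of H2bc21 at 17 dpp was −1.80 ± 0.24 in the block fit (adjusted p = 3.3e-05). Set 1 alone, with its 1 wild-type array, gave −2.45 ± 0.43, and set 3 alone gave −1.54 ± 0.27 (adjusted p = 0.00161). In wild type H2bc21 rose 4.91-fold from 14 to 17 dpp (log2 2.30 ± 0.40, limma, adjusted p = 0.0019), and by 1.89 ± 0.35 with the block (adjusted p = 0.00296). From 14 to 17 dpp in mutants it differed by 0.88 ± 0.35 (adjusted p = 0.115) and 0.17 ± 0.32 with the block (adjusted p = 0.96). The genotype difference at 17 dpp minus that at 14 dpp was −1.42 ± 0.53 without the block (adjusted p = 0.647) and −1.72 ± 0.36 with it (adjusted p = 0.0239). Without the block 0 of 15 histone genes were called for this change of the genotype difference, and 0.204% of all tested probe sets were called, all lower. An unadjusted p under 0.05 was reached by 1 histone gene and by 1951 of all 34764 tested probe sets. With the block H2bc21 was the 1 histone gene called, at a background of 0.0633% higher and 1.13% lower.

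The second H2bc21 probe set was not called. Its lowest, median and highest signals at 17 dpp were 20.5, 269 and 702 in wild type and 89.5, 131 and 266 in mutants, and the difference was −0.46 ± 0.65 (limma, adjusted p = 0.752), or −2.42 ± 1.12 in set 1 alone and 0.03 ± 0.70 in set 3 alone (adjusted p = 0.981). Over the mean of both probe sets the difference of H2bc21 was −1.13 ± 0.43 and was no longer called (adjusted p = 0.148). The result for H2bc21 thus rests on its brighter probe set, and whether that probe set also reads related genes was not tested.

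**Figure D3:**
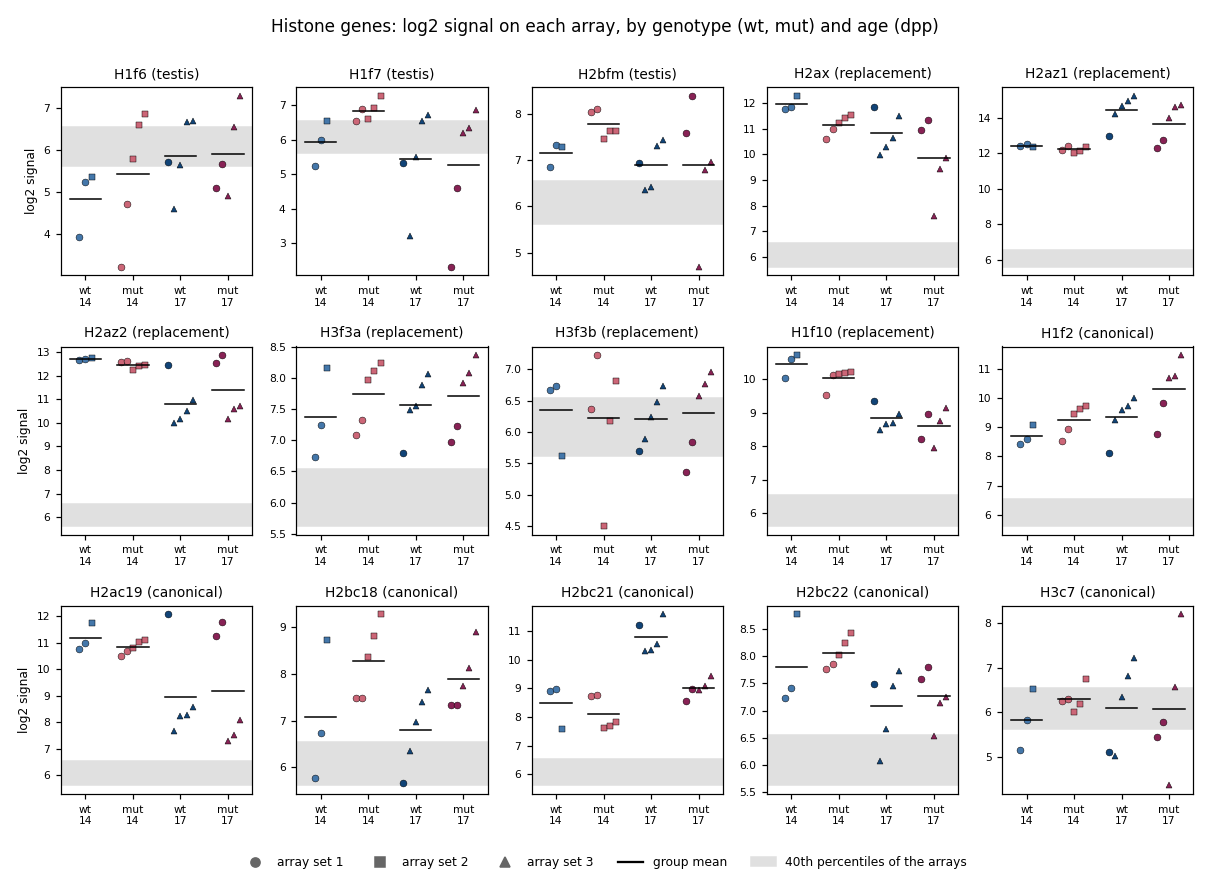
Log2 signal on each array for the 15 histone genes that passed the filter, by genotype and age; points are arrays shaped by array set, lines are group means and the grey band spans the 40th percentiles of the arrays. H2bc21 is high on the 5 wild-type arrays of 17 dpp, while H2ac19, H2az1 and H2az2 separate by array set at 17 dpp.

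H2ax encodes H2A.X, which is phosphorylated at DNA breaks and over the sex chromosomes of pachytene spermatocytes. At 14 dpp its signal was 3510, 3693 and 4955 in wild type and 1548, 2045, 2379, 2699 and 2933 in mutants, with no overlap. At 17 dpp it was 3625, 2868, 1583, 994 and 1260 in wild type and 2606, 1985, 694, 193 and 935 in mutants, with overlap across sets. Within set 3 each mutant array was below each wild-type array. The difference at 14 dpp was −0.82 ± 0.61 (limma, adjusted p = 1), and −0.97 ± 0.41 in the block fit (adjusted p = 1). At 17 dpp it was −1.0 ± 0.53 (adjusted p = 0.315), −1.36 ± 0.35 with the block (adjusted p = 0.0116), −0.67 ± 0.68 in set 1 alone and −1.63 ± 0.42 in set 3 alone (adjusted p = 0.0223).

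H1f2 encodes H1.2, a somatic linker histone. At 17 dpp its signal was 276, 1030, 605, 775 and 842 in wild type and 438, 905, 2831, 1647 and 1735 in mutants. The first wild-type array and the first 2 mutant arrays are those of set 1, and within each set every mutant array was above every wild-type array. The difference was 0.97 ± 0.44 without the block (limma, adjusted p = 0.236) and 1.29 ± 0.22 with it (2.45-fold, adjusted p = 0.000393). Set 1 alone gave 1.19 ± 0.43 and set 3 alone gave 1.33 ± 0.27 (adjusted p = 0.00469). The second H1f2 probe set gave 1.56 ± 0.45 without the block (adjusted p = 0.0496) and 1.20 ± 0.19 with it (adjusted p = 0.000287), and the third gave 1.11 ± 0.68 (adjusted p = 0.397). Over the mean of the 3 probe sets the difference was 1.21 ± 0.32 (adjusted p = 0.0299). At 14 dpp H1f2 was 385, 345 and 535 in wild type and 494, 372, 855, 698 and 792 in mutants, a difference of 0.57 ± 0.51 that was not called (adjusted p = 1).

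H2bc18 encodes a canonical H2B that lies outside the largest histone cluster. At 17 dpp its signal was 50.8, 126, 167, 201 and 82 in wild type and 160, 162, 213, 470 and 279 in mutants. The genotypes overlapped over all arrays, while within each set all mutant arrays were above all wild-type arrays. The difference was 1.07 ± 0.54 without the block (limma, adjusted p = 0.285), 1.29 ± 0.33 with it (adjusted p = 0.0099), 1.66 ± 0.61 in set 1 alone and 1.15 ± 0.38 in set 3 alone (adjusted p = 0.0618). At 14 dpp it was 54.8, 106 and 422 in wild type and 179, 178, 329, 446 and 614 in mutants, and the set 2 arrays were the high ones in both genotypes.

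Of the other canonical genes, H2ac19, an H2A gene, gave 4283, 381, 201, 311 and 299 in wild type and 3460, 2448, 157, 182 and 272 in mutants at 17 dpp. Its high arrays were those of set 1. Its genotype difference was 0.22 ± 0.85 without the block (limma, adjusted p = 0.924) and −0.55 ± 0.19 with it (adjusted p = 0.0517). For H2bc22, another H2B gene, the differences were 0.26 ± 0.43 at 14 dpp and 0.19 ± 0.37 at 17 dpp, and for H3c7, an H3 gene near the filter, 0.47 ± 0.70 and −0.03 ± 0.61. H1f4, H3c4 and H3c11 did not pass the filter, and their group geometric means were 9.37 to 14.7, 8.86 to 30.6 and 14.7 to 26.

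Among the replacement variants, H2ax alone was called between genotypes, with the block. H2az1, which encodes H2A.Z.1, gave −0.74 ± 0.44 at 17 dpp without the block (limma, adjusted p = 0.373) and −0.37 ± 0.18 with it (adjusted p = 0.172). H2az2, which encodes H2A.Z.2, gave 0.56 ± 0.49 and 0.13 ± 0.17. H1f10, a replication-independent linker histone, gave −0.23 ± 0.27 and −0.28 ± 0.23. H3f3a and H3f3b both encode H3.3, and their own probe sets gave 0.16 ± 0.37 and 0.09 ± 0.48 without the block. Their group geometric means were 167 to 215 for H3f3a and 74.2 to 81.1 for H3f3b. Those of H3f3b lay within the 40th percentiles of the arrays, 49.2 to 93.4. The brightest probe set shared by the H3.3 genes had group geometric means of 13635 to 28783. Signals of different probe sets have no common scale, and how much H3.3 mRNA the own probe sets read was not tested.

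Between 14 and 17 dpp in wild type, the limma fit called H2bc21 (above) and H2az1 higher and H2az2 and H1f10 lower, 2 of 15 in each direction, where 4.86% of all tested probe sets were higher and 16.5% lower. In the block fit H2bc21 and H2ac19 were higher and H1f10 lower, at a background of 3.06% higher and 4.57% lower. H1f10 was 1543, 1052 and 1688 at 14 dpp and 655, 416, 504, 405 and 358 at 17 dpp in wild type, with no overlap. It fell by 1.62 ± 0.31 (adjusted p = 0.00351), and by 1.29 ± 0.34 with the block (adjusted p = 0.0252). Within set 1 alone the wild-type difference was −0.96 ± 0.44.

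H2az1 was 5464, 5802 and 5277 in wild type at 14 dpp and 8179, 26222, 18535, 31889 and 38361 at 17 dpp. The set 1 array of 17 dpp was the lowest of its group and was still above each 14 dpp array. The age difference of H2az1 was 1.98 ± 0.50 (limma, adjusted p = 0.0155), 0.46 ± 0.27 with the block (adjusted p = 0.328) and 0.54 ± 0.37 within set 1. The second H2az1 probe set had wild-type geometric means of 3924 at 14 dpp and 11754 at 17 dpp. The shared H2A.Z probe set, which reads H2az1 and Gm8203, had 14220 and 15962. A dimmer probe set shared by the same genes had 1540 and 5589, so the size of the rise differed between probe sets. H2az2 was 6547, 6771 and 6783 at 14 dpp and 5515, 2005, 1451, 1021 and 1134 at 17 dpp. Its age difference was −1.90 ± 0.57 (adjusted p = 0.0278), −0.23 ± 0.25 with the block (adjusted p = 0.635) and −0.27 ± 0.33 within set 1. The call of H2az1 was lost without wild type 14 dpp replicate 1 or 3 (adjusted p = 0.0639 and 0.0625). The call of H2az2 was lost without any 1 of 6 wild-type arrays, replicates 1, 2 and 3 of 14 dpp and replicates 3, 4 and 5 of 17 dpp (adjusted p = 0.057 to 0.086). The second probe set of H2az2 gave 0.09 ± 0.27. The age differences of H2az1 and H2az2 thus lay mostly between the array sets. H2ac19 was 1745, 2001 and 3452 in wild type at 14 dpp, and its age difference was −2.20 ± 0.98 without the block (adjusted p = 0.11) and 1.09 ± 0.28 with it (adjusted p = 0.0248), opposite in sign. The block value links the ages through set 1, with its 1 wild-type array of 17 dpp.

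In mutants 1 of 15 genes, H1f10, was lower at 17 than at 14 dpp (limma, −1.44 ± 0.27, adjusted p = 0.0131), where 0.423% of all tested probe sets were higher and 1.5% lower. H1f10 was 744, 1107, 1200, 1173 and 1136 at 14 dpp and 298, 497, 566, 429 and 249 at 17 dpp in mutants, with no overlap. With the block 0 of 15 were called, and the background was 0.141% higher and 1.23% lower. An unadjusted p under 0.05 was reached by 3 of the 15 and by 3634 of all 34764 tested probe sets. H1f10 gave −1.07 ± 0.31 with the block (adjusted p = 0.121). Without mutant 17 dpp replicate 1, 5 genes were called in this comparison, H2ax, H2az1, H2az2, H1f10 and H1f2, but the share of all tested probe sets called then rose to 20%, with 4.48% higher and 15.5% lower. Without mutant 14 dpp replicate 3 no histone gene was called (H1f10, adjusted p = 0.0541), and 0.279% of all tested probe sets were.

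Most canonical genes could be read only from probe sets shared by several genes, of which 22 of 25 passed the filter. These read several genes of a family together, in unknown parts, and give no value for a single gene. At 14 dpp 0 of the 22 were called between genotypes by limma, none with an unadjusted p under 0.05, which 696 of all 34764 tested probe sets had. At 17 dpp limma called 1 higher and 0 lower, and in the block fit 4 higher and 1 lower, against the background shares given above. The 4 higher ones read canonical H2A or H2B genes, and the lower one read H3.3. The probe sets of one family did not all lie on the same side, as the 2 for H2A show.

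The shared H2A probe set reads 10 H2ac genes. At 14 dpp the signal of shared H2A was 12020, 13242 and 18076 in wild type and 14990, 13325, 16326, 20592 and 19770 in mutants. At 17 dpp it was 2572, 141, 216, 268 and 137 in wild type and 4000, 5574, 327, 469 and 286 in mutants. Every array of 17 dpp was below every array of 14 dpp in both genotypes, and within each array set of 17 dpp every mutant array was above every wild-type array. In wild type the age difference was −5.52 ± 0.95 (limma, adjusted p = 0.00177), −2.35 ± 0.28 with the block (adjusted p = 0.000132) and −2.29 ± 0.38 within set 1, which holds 1 wild-type array of 17 dpp. In mutants it was −4.07 ± 0.82 (adjusted p = 0.0219), −1.54 ± 0.26 with the block (adjusted p = 0.00315) and −1.58 ± 0.31 within set 1 (adjusted p = 0.0272). Without the block this call in mutants was lost when any 1 of the 6 mutant arrays outside set 1 was left out (adjusted p = 0.059 to 0.0734). The genotype difference at 17 dpp was 1.68 ± 0.82 without the block (adjusted p = 0.273), 0.93 ± 0.19 with it (adjusted p = 0.00226), 0.88 ± 0.38 in set 1 alone and 0.95 ± 0.24 in set 3 alone (adjusted p = 0.0188).

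The other H2A probe set, shared H2A (H2ac18, H2ac19), lay on the opposite side. Its signal at 17 dpp was 197, 414, 455, 501 and 610 in wild type and 95.8, 148, 330, 481 and 242 in mutants. The groups overlapped, and within set 1 both mutant arrays were below the wild-type one. The genotype difference was −0.88 ± 0.39 (limma, adjusted p = 0.228) and −0.59 ± 0.23 with the block (adjusted p = 0.0776), and it was not called. At 14 dpp the signal was 172, 146 and 242 in wild type and 162, 177, 198, 240 and 169 in mutants. Its age difference in wild type was 1.16 ± 0.46 (adjusted p = 0.0732) and 0.14 ± 0.34 with the block (adjusted p = 0.847), where shared H2A fell.

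The probe set shared by H2bc4, H2bc6 and H2bc8, here shared H2B (H2bc4, H2bc6, H2bc8), differed little between array sets. Its signal at 17 dpp was 1612, 2066, 1865, 2041 and 1634 in wild type and 2431, 2841, 3246, 2738 and 2613 in mutants, with no overlap. The genotype difference was 0.59 ± 0.19 (limma, adjusted p = 0.0872) and 0.62 ± 0.16 with the block (adjusted p = 0.0117). In mutants it rose from 14 to 17 dpp by 0.99 ± 0.19 (adjusted p = 0.0162), and by 0.95 ± 0.22 with the block (adjusted p = 0.0352). Without the block that call was lost when mutant 14 dpp replicate 3 or mutant 17 dpp replicate 3 was left out (adjusted p = 0.0567 and 0.0541). In wild type the age difference was 0.39 ± 0.22 (adjusted p = 0.211).

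The dim shared H2B (5 H2bc genes) probe set gave 39, 21.9, 110, 26.7 and 43.5 in wild type and 88.8, 76.2, 138, 239 and 128 in mutants at 17 dpp, and the difference was 1.61 ± 0.46 (limma, adjusted p = 0.0491) and 1.73 ± 0.45 with the block (adjusted p = 0.012). Its call without the block was lost when any 1 of 13 of the 18 arrays was left out, with an adjusted p of 0.0608 to 0.123. The highest was without wild type 17 dpp replicate 2. Only 1 of the 5 wild-type arrays was above the 40th percentile of its array. The shared H2B (10 H2bc genes) probe set gave 1783, 297, 158, 190 and 101 in wild type and 3499, 2672, 300, 216 and 556 in mutants at 17 dpp, with the set 1 arrays high. Its genotype difference was 1.54 ± 0.75 (adjusted p = 0.268) and 0.89 ± 0.27 with the block (adjusted p = 0.0288). Its age difference in wild type was −2.87 ± 0.87 (adjusted p = 0.0289) and −0.11 ± 0.40 with the block (adjusted p = 0.91). The call without the block was lost when any 1 of 6 wild-type arrays was left out, replicates 1, 2 and 3 of 14 dpp or 3, 4 and 5 of 17 dpp (adjusted p = 0.0555 to 0.0962).

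No shared probe set of canonical H3 or H4 genes was called between genotypes at 17 dpp in either fit. The brightest shared H3 probe set gave −0.12 ± 0.22 at 17 dpp (limma, adjusted p = 0.83), and the brightest shared H4 probe set gave 0.80 ± 0.42 (adjusted p = 0.304), or −0.19 ± 0.18 and 0.58 ± 0.33 with the block (adjusted p = 0.51 and 0.234). Whether H3 and H4 differed from H2A and H2B was not tested. The probe set here called shared H3.3, second, one of those that read H3f3a, H3f3b and H3f3c together, was 12171, 24961, 25525, 21603 and 24852 in wild type and 9510, 11779, 16036, 12020 and 18887 in mutants at 17 dpp. Its difference was −0.67 ± 0.21 (adjusted p = 0.0773) and −0.53 ± 0.13 with the block (adjusted p = 0.00852). The brightest shared H3.3 probe set gave −0.19 ± 0.39 (adjusted p = 0.842), so probe sets of these genes disagreed.

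**Figure D4:**
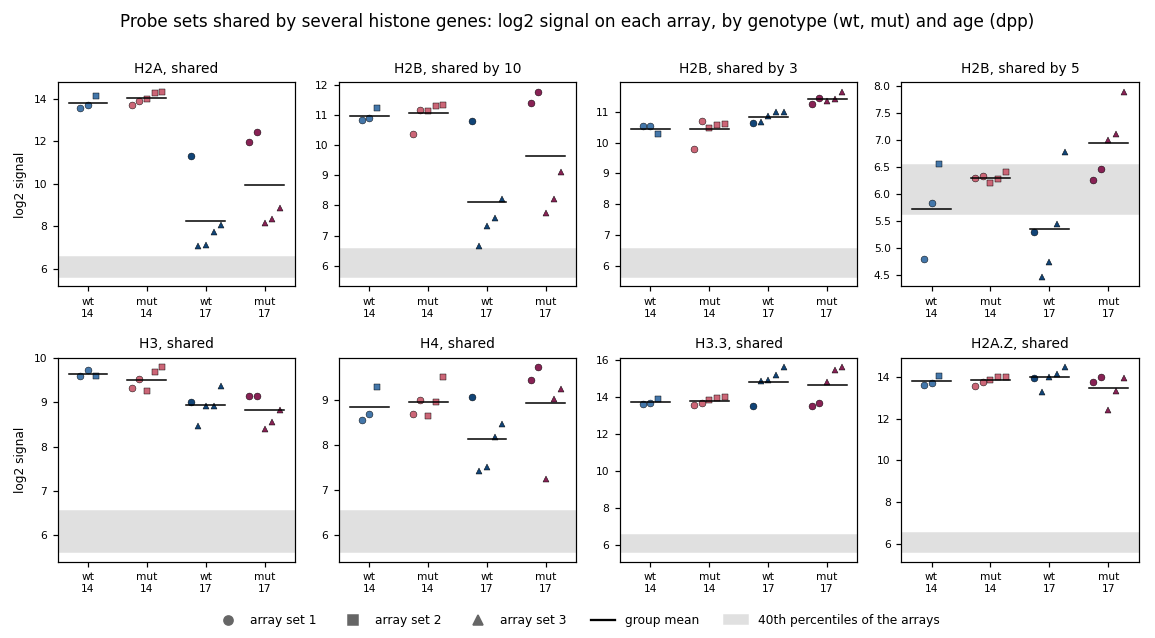
Log2 signal on each array for 8 probe sets shared by several histone genes, by genotype and age; points are arrays shaped by array set, lines are group means and the grey band spans the 40th percentiles of the arrays. The shared H2A signal lies at 12020 to 20592 on the 8 arrays of 14 dpp and at 137 to 5574 on the 10 arrays of 17 dpp, and the H2B probe set shared by 3 genes lies at 2431 to 3246 in mutants of 17 dpp against 1612 to 2066 in wild type.

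Genes of related function were read from lists chosen for this comparison. Of 20 tested DNA replication genes, 1 was higher in mutants at 17 dpp and 0 lower without the block, and 8 were higher and 2 lower with it. Over all tested probe sets 1.48% were higher and 3.86% lower without the block, and 10.8% and 8.05% with it, and these shares apply to each list below. The median difference of the list was 0.44 without the block, against 0.25 over all tested probe sets. Cdt1, a licensing factor, was higher by 1.12 ± 0.30 (limma, adjusted p = 0.0338). With the block Mcm2, Mcm4, Mcm5 and Mcm6 of the replicative helicase were higher by 0.61 to 0.84 and Mcm7, of the same helicase, was lower (−0.43 ± 0.11, adjusted p = 0.00968). The other list members called with the block were Cdt1, Rrm2, Tk1 and Pola1, higher by 0.62 to 1.39, and Uhrf1, lower (−0.42 ± 0.12, adjusted p = 0.0209). The summed signal of the list at 17 dpp was 42025 to 49521 in wild type and 45552 to 54138 in mutants. The 9 tested spermatogonia markers held 0 higher and 1 lower without the block and 4 higher and 1 lower with it. Without the block the lower one was Id4 (−2.72 ± 0.24, limma, adjusted p = 8.1e-07), and the other 8 differences were positive. Spermatogonia markers had a summed signal of 14884 to 19008 in wild type and 9152 to 20782 in mutants at 17 dpp, with overlap. Sertoli markers held 1 higher of 8, and 4 with the block, with a summed signal of 35973 to 67039 in wild type and 52398 to 94950 in mutants. Macrophage markers held 1 higher of 4, and 3 with the block, with 1932 to 4083 in wild type and 4965 to 7582 in mutants. Leydig and endothelial markers held 0 called of 4 each in both fits, and peritubular myoid markers 0 of 4 without the block and 1 higher with it. Their summed signals at 17 dpp were 1394 to 3509 in wild type and 2118 to 6658 in mutants for Leydig cells, 259 to 625 and 455 to 748 for endothelium, and 8304 to 16038 and 12203 to 20860 for peritubular cells. Of 6 round spermatid markers 1, Acr, was lower in both fits. The part of these cell types in the histone differences was not tested.

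Of 15 tested genes of histone mRNA processing and transcription, Ncbp1, of the nuclear cap-binding complex, was lower at 17 dpp (−1.35 ± 0.24, limma, adjusted p = 0.00163) and none was higher. With the block 3 were higher and 3 lower. The lower ones were Ncbp1, Sympk, a scaffold of the 3' end processing complex (−1.91 ± 0.56, adjusted p = 0.0232), and Slbp, which encodes the protein that binds the histone stem-loop (−0.52 ± 0.14, adjusted p = 0.0133). The higher ones were Hinfp, a transcription factor of H4 genes (0.62 ± 0.15, adjusted p = 0.00915), Eri1, an exonuclease that trims and degrades histone mRNA (0.68 ± 0.18, adjusted p = 0.0156), and Nfyc, a subunit of NF-Y (0.55 ± 0.13, adjusted p = 0.00782). Of 22 tested histone chaperones and exchange factors, 0 were called without the block, and 3 were higher and 3 lower with it. The lower ones were Nasp, a chaperone of H3 and H4 and of linker histones (−1.11 ± 0.34, adjusted p = 0.027), Supt16, a subunit of FACT (−0.88 ± 0.19, adjusted p = 0.00369), and Ep400, an ATPase that exchanges H2A.Z (−0.90 ± 0.14, adjusted p = 0.0002). The higher ones were Anp32e, a chaperone that removes H2A.Z (0.54 ± 0.13, adjusted p = 0.00746), Atrx, a chromatin remodeller that acts with an H3.3 chaperone (0.60 ± 0.16, adjusted p = 0.0137), and Rbbp7, which binds histone H4 (0.53 ± 0.13, adjusted p = 0.0101).

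Of 14 tested genes of the histone to protamine exchange, 3 were lower and 1 higher in mutants at 17 dpp without the block, and 3 lower and 2 higher with it. Prm2, a protamine, was the further higher one (1.33 ± 0.42 with the block, limma, adjusted p = 0.0349). Without the block Prm2 gave 0.86 ± 0.86 (limma, adjusted p = 0.626). In that fit Prm1, Prm3 and Tnp1 gave −0.57 ± 0.88, −1.5 ± 0.93 and −0.29 ± 0.76 and were not called. Phf7, a germ cell chromatin reader and ubiquitin ligase, was lower by −3.66 ± 0.22 on the log2 scale (limma, adjusted p = 1.16e-08), and was the 1 gene of these 4 functional lists called at 14 dpp (−1.84 ± 0.26, adjusted p = 0.00226). Brdt, a bromodomain protein that binds acetylated histones, gave −1.76 ± 0.28 (adjusted p = 0.000511), and Psme4, a proteasome activator of histone degradation, −0.95 ± 0.22 (adjusted p = 0.0122). Cdyl, a chromodomain protein, was higher by 0.67 ± 0.16 (adjusted p = 0.0196). The summed signal of this list, in which bright probe sets weigh most, was 29961 to 51348 in wild type and 9285 to 13180 in mutants at 17 dpp. These sums did not overlap. The genes did not fall together: 7 differences were positive and 7 negative, with a median of −0.01 without the block. The median of the 9 pachytene markers was −5.66. The summed signal of both lists was lower in mutants, and the part of the pachytene cells in it was not tested.

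Of the macroH2A genes, which are replacement variants under symbols outside the prefixes, Macroh2a3 was lower in mutants at 17 dpp. Its older symbol H2afy3 carries one of the prefixes, and the reference lists it as a transcribed pseudogene. Its signal at 17 dpp was 684, 324, 258, 233 and 533 in wild type and 27.3, 42.4, 70.5, 82.7 and 91.5 in mutants, with no overlap. At 14 dpp Macroh2a3 was 74.3, 104 and 82.4 in wild type and 52.7, 91.4, 52.9, 70.2 and 94.1 in mutants. The difference at 17 dpp was −2.70 ± 0.40 (limma, adjusted p = 0.000197). Set 1 alone, with its 1 wild-type array, gave −4.33 ± 0.62 and set 3 alone gave −1.98 ± 0.39 (adjusted p = 0.00395). With age in wild type Macroh2a3 rose by 2.11 ± 0.46 (adjusted p = 0.00792), and by 1.85 ± 0.59 with the block (adjusted p = 0.0621). The differences of Macroh2a1 and Macroh2a2 at 17 dpp were −0.59 ± 0.40 and −0.27 ± 0.28 (adjusted p = 0.448 and 0.643).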

How the data were processed

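RNA of whole testis, labelled from 6 ug of total RNA per the labels, was hybridised to 18 one-colour Affymetrix arrays. The deposited values are intensity signals made with MAS5, per the submitters' processing notes, on a linear scale and 1 table per series. The log2 of the signal was taken here, with no normalization between arrays. Of 45101 probe sets, 64 controls were left out, 34945 named 1 gene, 932 several genes and 9160 no gene in GEO's platform annotation updated through RefSeq. Probe sets above the 40th percentile of the array on at least 3 arrays were tested (34764).

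Group means were fitted with limma 3.58.1 in R 4.3.3, with an intensity trend (14 residual degrees of freedom). P-values are two-sided and were adjusted by Benjamini-Hochberg over all tested probe sets, with a threshold of 0.05. Alternatives were the array set as a block (12), fits within sets (10), other filters, scalings and offsets, array weights, no moderation at a threshold of 0.025, and leaving out each array. The array sets used bounds of 1.9 and 10. The calling step was tested on simulated data. Members, lists and array sets were chosen with earlier results of these data known. Named genes were each one called in any comparison, each testis or replacement variant, the 6 brightest canonical genes and the 3 largest differences per age.

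Replicate numbers were checked as pairs: deviations of same-numbered arrays correlated at 0.283, 0.355 and 0.385 at 14 dpp and at 0.777, −0.227, 0.226, 0.385 and 0.207 at 17 dpp, so the numbers were not treated as pairs. The repro9 allele is a point mutation, so the level of Mybl1 was not used to check labels.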

Additional observations from a re-analysis of the deposited data

Results flagged for a closer look

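Among 45 groups of 5 arrays checked for a single distant value, 2 stood out, and chance alone flags about 1 in 20 groups. H1f10 on mutant 14 dpp replicate 1 was 744, below the other 4 arrays of its group at 1107 to 1200. H2ac19 on wild type 17 dpp replicate 1 was 4283, above the other 4 arrays of its group at 201 to 381. That array is the one of its group in array set 1, and the 2 mutant arrays of set 1 at 17 dpp were high for H2ac19 too.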

How the results depend on the processing

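Counts are of the 15 tested histone genes called. The call of H2bc21 at 17 dpp was kept under each alternative and left-out array except the mean of its probe sets. The count at 17 dpp was 1, and 4 with the array set block, 3 within array set 3 and 2 with the replicate block (H2bc21 and H2ax), where the numbers are not shown to pair samples, and 11.5% and 10.4% of all tested probe sets were called in the last pair of fits against 5.33% without a block. With the array set block 18.8% were called. The count was 1 whichever array was left out, where 3.47% to 11.4% of all tested probe sets were called. At 14 dpp it was 0, and 4 with array weights (H3f3a, H1f2 and H2bc18 higher, H2bc21 lower, −0.94, adjusted p = 0.0109), where 15.4% of all tested probe sets were called against 0.196%, and 0 whichever array was left out. For the change of the genotype difference it was 0, and 1 with the array set block, and 0 whichever array was left out. Of all tested probe sets 1.2% were called with the array set block, against 0.204% as reported. For age in wild type it was 4, and 2 without moderation, where 7.17% of all tested probe sets were called, 7 with array weights and 2 to 5 over the left-out arrays. Counts within array set 1 and without array set 3 are not given, as 1 wild-type array of 17 dpp is then left. Of all tested probe sets 21.4% were called in the fit as reported, 50.6% with array weights and 3.7% to 35.9% over the left-out arrays. For age in mutants it was 1, where 1.92% of all tested probe sets were called. It was 0 with the array set block, within array set 1 and with only the groups compared, where 1.37%, 0.685% and 0.59% were called. It was 2 with a common median and without array set 3, where 4.96% and 6.53% were called. It was 8 with array weights, where 35.9% were called, and 0 to 5 over the left-out arrays, where 0.279% to 20% were called. Arrays were left out of the fit without the block only, and fits within array set 1 hold 1 wild-type array of 17 dpp. With quantile normalization the 1 gene called for age in mutants was H2bc21 (higher) in place of H1f10. The age difference of H2ac19 in wild type was 1.09 with the array set block, and that of shared H3.3, second, was −0.10 within array set 1 and −0.07 without array set 3, where the main value was 0.72. The cause was not tested. A common median moved the median difference of all probe sets at 17 dpp from 0.25 to 0.11 and in wild-type age from −0.44 to −0.08, and the share of called probe sets that were higher from 27.7% to 7.84% and from 22.7% to 64.6% (80.9% in mutants against 22%). With quantile normalization these shares were 17.7%, 48.8% and 57.9%. H2bc21, H2ax, H1f2 and H2bc18 kept their sign at 17 dpp under both scalings. MAS5 signals near background limit H1f6, H1f7 and the other dim variants.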
